A study of Mus musculus with 32 samples.

Results

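The 5 genes described here carry the Gdnf-Ret signal of the embryonic mouse kidney: the ligand *Gdnf*, the receptors *Ret* and *Gfra1*, and the ETS factors *Etv4* and *Etv5*. They were taken by name, and all 5 were present in the 4 gene count tables, among 55806 gene identifiers. RNA was read from 32 libraries in 11 groups of kidneys carrying tumor mutations of the chromatin reader ENL, encoded by *Mllt1* (*Enl*), or the wildtype gene. At E18.5, whole kidneys of the Six2 line were ENL WT (Six2-TGCtg/+;Enl+/+), ENL T1 (Six2-TGCtg/+;EnlT1/+) or ENL T3 (Six2-TGCtg/+;EnlT3/+), with 2 libraries each. Whole E18.5 kidneys of the Foxd1 line were ENL WT (Foxd1GC/+;Enl+/+) or ENL T1 (Foxd1GC/+;EnlT1/+), with 3 libraries each. Cells positive for the Cre reporter tdTomato (tdT+) were sorted from the Six2 line at both E14.5 and E18.5, with 3 libraries per genotype and stage, and from the Foxd1 line at E18.5, with 4 per genotype.

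T1 is a small insertion and T3 a small deletion in the YEATS domain of ENL, each knocked in on 1 allele of C57BL/6J mice and switched on by Cre. In the Six2 line the Cre came from a BAC transgene active in nephron progenitors, and the ENL WT kidneys carried that transgene too. In the Foxd1 line the Cre was knocked into *Foxd1*, a stromal gene, so all kidneys of that line, ENL WT included, had lost *Foxd1* function from that allele. The sorted cells carried the tdTomato reporter in both genotypes and held the Cre-labelled cells together with their descendants. Nothing in the labels says that libraries of a group came from different embryos, so the p-values below measure only the spread between libraries.

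In the forming kidney, Gdnf is secreted by the mesenchyme around the tips of the ureteric bud, chiefly by nephron progenitors and also by stromal cells. The tip cells carry the receptor tyrosine kinase Ret, which binds Gdnf together with the membrane-anchored co-receptor Gfra1, and the signal makes the tip grow and branch into the collecting duct tree. *Etv4* and *Etv5* are switched on by Ret in the tip and are needed for branching. *Gfra1*, *Etv4* and *Etv5* are also transcribed in nephron progenitors, where FGF signals can induce the ETS genes, so a level in a whole kidney sums several cell types. In such bulk samples, fewer cells of a type and less RNA per cell cannot be told apart.

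The libraries held 2557443 to 3508381 counts in sorted Foxd1 cells, 67137194 to 79343015 in Foxd1 whole kidneys, 76510702 to 137888792 in sorted Six2 cells and 106005614 to 157266455 in Six2 whole kidneys. At E18.5 sorted ENL WT Six2 cells had *Six2* at 224.2 ± 33.5 CPM (counts relative to the TMM-scaled library total, mean ± SD, n = 3), against 15.3 ± 3.25 (n = 4) in sorted ENL WT Foxd1 cells. *Pdgfra*, a stromal receptor, stood at 19.25 ± 8.50 and 365.5 ± 30 CPM in the same groups, and *Foxd1* itself at 37.5 ± 3.98 and 67.2 ± 8.34. Six2 cells of E14.5 had more *Foxd1* transcript than either, at 144 ± 13.2 CPM (n = 3). *Mllt1* itself passed both thresholds given below in no comparison of genotypes, and gene counts cannot show which allele was transcribed. By adjusted p alone (edgeR's quasi-likelihood test) *Mllt1* was lower in Foxd1 whole kidneys (log2 fold change -0.27, adjusted p = 0.00102). The same held for ENL T3 whole kidneys of the Six2 line (-0.33, adjusted p = 0.0238) and sorted Six2 cells at E14.5 (-0.14, adjusted p = 0.0436). The Y-linked gene *Ddx3y* exceeded 1 CPM in 1 of 2 ENL WT, 2 of 2 ENL T1 and 0 of 2 ENL T3 Six2 whole kidneys, in 0 of 6 Foxd1 whole kidneys and in 8 of 8 sorted Foxd1 libraries. In sorted Six2 cells it did so in 1 of 3 ENL WT and 2 of 3 ENL T1 libraries at E14.5, and in 1 of 3 of each genotype at E18.5. The part of sex in the results of Six2 whole kidneys and sorted Six2 cells was not tested.

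A gene was called changed when its adjusted p was under 0.05 (edgeR's quasi-likelihood test, Benjamini-Hochberg over all genes tested) and its fold change over 1.5. In whole kidneys of the Six2 line, 1 of the 5 genes was called in ENL T1, *Gdnf*, and 3 of 5 in ENL T3, *Gdnf*, *Ret* and *Gfra1*, all lower. Of all genes tested, 7.77% were called in ENL T1 and 9.62% in ENL T3, in either direction. By adjusted p alone, *Gdnf*, *Gfra1* and *Etv4* were lower in ENL T1 and all 5 were lower in ENL T3, against 9.16% and 10.2% of all genes lower by that rule. Both mutants were set against the same ENL WT libraries. In sorted Six2 cells only *Gfra1* was called, lower at both stages, where 6.4% of genes were called in either direction at E14.5 and 11.7% at E18.5. In sorted Foxd1 cells *Gdnf* was called, lower, among 4 members tested and a background of 5.81% called in either direction. In Foxd1 whole kidneys *Ret* was called, higher, against 10.2% of all genes called in either direction. By adjusted p alone, 4 of 5 were higher there (*Ret*, *Gfra1*, *Etv4* and *Etv5*), against 16.4% of all genes higher by that rule.

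**Figure D1:**
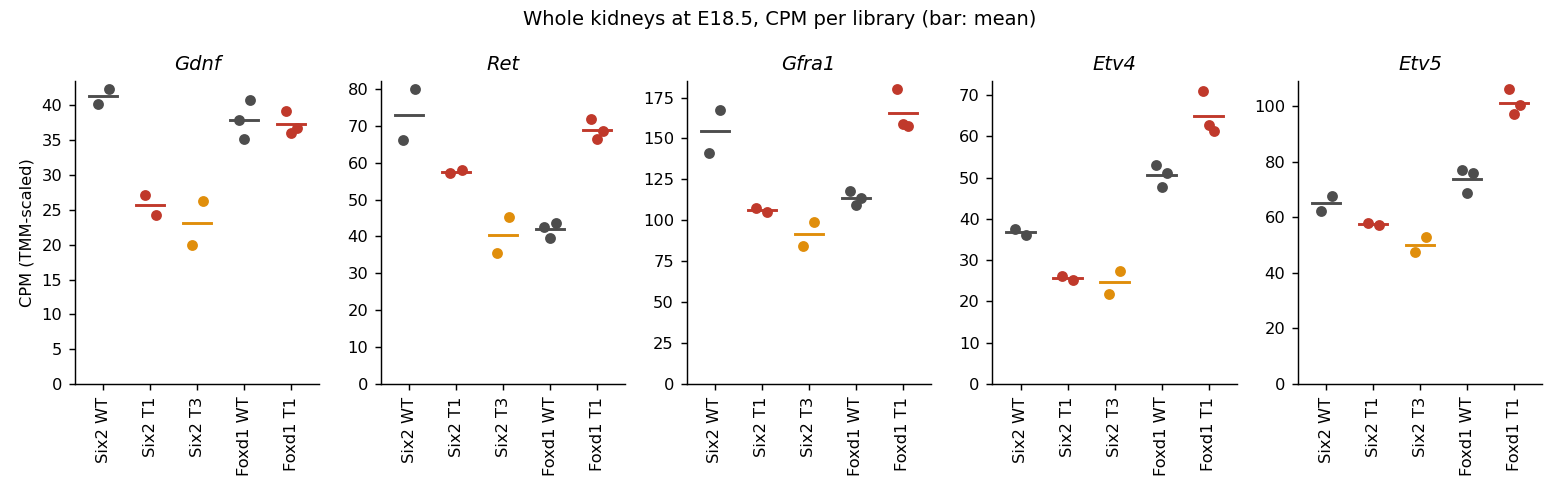
Level of the 5 genes in whole E18.5 kidneys, in CPM per library on a linear axis from 0 (points) with the group mean (bar), for ENL WT, T1 and T3 of the Six2 line and ENL WT and T1 of the Foxd1 line. In the Six2 line no mutant point reached the ENL WT points for any of the 5 genes, whereas in the Foxd1 line the T1 points of *Ret*, *Gfra1*, *Etv4* and *Etv5* all lay above ENL WT and those of *Gdnf* overlapped it.

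*Gdnf* (ENSMUSG00000022144), the ligand, lies on the plus strand of chromosome 15, at chr15:7810846-7837575 of GRCm38. RefSeq places its first start upstream of that gene model, and the 250 bases before this start (GRCm38.p6, chr15:7809798-7810047, plus strand, in no annotated exon) are shown because *Gdnf* is the ligand on which the pathway depends.

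Gdnf: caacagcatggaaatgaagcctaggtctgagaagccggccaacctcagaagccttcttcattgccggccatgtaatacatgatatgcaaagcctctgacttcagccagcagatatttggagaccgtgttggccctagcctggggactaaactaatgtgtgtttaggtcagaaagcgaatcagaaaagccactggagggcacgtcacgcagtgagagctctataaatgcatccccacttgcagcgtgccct

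This stretch was searched on both strands for an ETS core (CCGGAA), a SIX2-type site (TCAGGTT) and a posterior Hox site (TTTACGA), and held none of these letters. That says nothing about the factors. Among 32851 RefSeq promoters of 300 bases, 14.9% held the ETS letters, 4.07% the SIX2-type letters and 0.597% the Hox letters. No base is in capitals because no motif was found.

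In Six2 whole kidneys *Gdnf* stood at 40.2 and 42.4 CPM in ENL WT, 27.1 and 24.3 in ENL T1, and 20.02 and 26.26 in ENL T3. Every mutant library was below both ENL WT libraries, and the mutants overlapped each other. *Gdnf* fell 1.61-fold in ENL T1 (log2 fold change -0.69 ± 0.13 SE, adjusted p = 0.0107) and 1.79-fold in ENL T3 (-0.84 ± 0.13, adjusted p = 0.00383). Without ENL T1 replicate 2 the ENL T1 value was -0.60 and the adjusted p 0.114, so the ENL T1 call rested on that library. Over the same kidneys the summed level of 8 nephron progenitor markers ran from 471.9 to 535.6 CPM in ENL WT, 331.2 to 345.4 in ENL T1 and 290.8 to 323.1 in ENL T3, and 6 of the 8 were called lower in each mutant. Without ENL T1 replicate 2 the ENL T1 count was 3, with *Six2*, *Eya1* and *Osr1* no longer called. None of the 8 was at 0. The 6 macrophage markers summed to 101.8 to 103.8 CPM in ENL WT, 138.5 to 146.3 in ENL T1 and 139.2 to 150.6 in ENL T3. Of these 5 were called higher in ENL T1, 3 without ENL T1 replicate 2, and 4 in ENL T3. The part of either cell type in the *Gdnf* difference was not tested.

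Sorted Six2 cells hold the nephron progenitor lineage, a main source of Gdnf. At E14.5 *Gdnf* stood at 61.9, 72.0 and 60.8 CPM in ENL WT and 52.7, 55.4 and 60.3 in ENL T1. The groups nearly touched, and the gene was not called (-0.19 ± 0.08, adjusted p = 0.154). At E18.5 the levels were 76.5, 70.1 and 83.1 CPM in ENL WT and 48.5, 53.0 and 62.8 in ENL T1, with no overlap. That difference passed the adjusted p but not the fold threshold (1.39-fold lower, -0.48 ± 0.10, adjusted p = 0.00261). Without ENL T1 replicate 3 it was -0.60 and passed both (adjusted p = 9.94e-04). The effect at E18.5 minus that at E14.5 was -0.27 ± 0.14 (adjusted p = 0.278), an interaction that was not called.

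In sorted Foxd1 cells *Gdnf* was called. It read 33.6, 45.9, 30.6 and 42.3 CPM in ENL WT and 16.2, 18.3, 18.0 and 21.0 in ENL T1, so that the highest mutant library stayed below the lowest ENL WT library. The fall was 2.07-fold (-1.05 ± 0.15, adjusted p = 6.99e-05), and it was called without any 1 of the 8 libraries, with log2 fold changes from -1.13 to -0.95. These shallow libraries counted 44 to 65 *Gdnf* reads in ENL T1 and 76 to 157 in ENL WT. The 10 stromal markers summed to 6334 to 8934 CPM in ENL WT and 7134 to 8145 in ENL T1, and single markers moved both ways, with *Meis2* and *Lum* called higher and *Pdgfrb* and *Ntn1* lower. The 12 ureteric markers summed to 130.3 to 202.8 CPM in ENL WT and 95.74 to 108.7 in ENL T1, where *Aqp2* was the 1 called of 8 tested, lower. The 6 macrophage markers summed to 67.99 to 173.9 CPM in ENL WT and 167.6 to 240.8 in ENL T1. The 8 nephron progenitor markers summed to 279.4 to 359.2 CPM in ENL WT and 282.7 to 301.5 in ENL T1, with 1 called higher and 0 lower. The part of these cell types in the result was not tested.

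In whole kidneys of the Foxd1 line no difference was called. *Gdnf* was 38.0, 35.2 and 40.8 CPM in ENL WT and 39.2, 36.1 and 36.8 in ENL T1, overlapping groups with a log2 difference of -0.02 (95% confidence interval -0.16 to 0.12, adjusted p = 0.824). The summed nephron progenitor markers in these kidneys ran from 623.5 to 671.4 CPM in ENL WT and 882.7 to 1055 in ENL T1, the opposite of the Six2 line. Their part in this comparison was not tested.

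Ranked by mean CPM in ENL WT, *Gdnf* was highest in sorted Six2 cells at E18.5 (76.6 ± 6.54, n = 3), then in sorted Six2 cells at E14.5 (64.9 ± 6.16, n = 3). Six2 whole kidneys (41.3 ± 1.53, n = 2), sorted Foxd1 cells (38.1 ± 7.17, n = 4) and Foxd1 whole kidneys (38.0 ± 2.80, n = 3) followed, and these 3 did not differ beyond their spread. Kits, depth and scaling differed between the tables, so the order is a description. In ENL WT Six2 cells, *Gdnf* at E18.5 against E14.5 gave 0.24 ± 0.10 (adjusted p = 0.042), short of the adjusted p of 0.01 and the fold change of 2 used for development, which 45.5% of all genes passed.

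**Figure D2:**
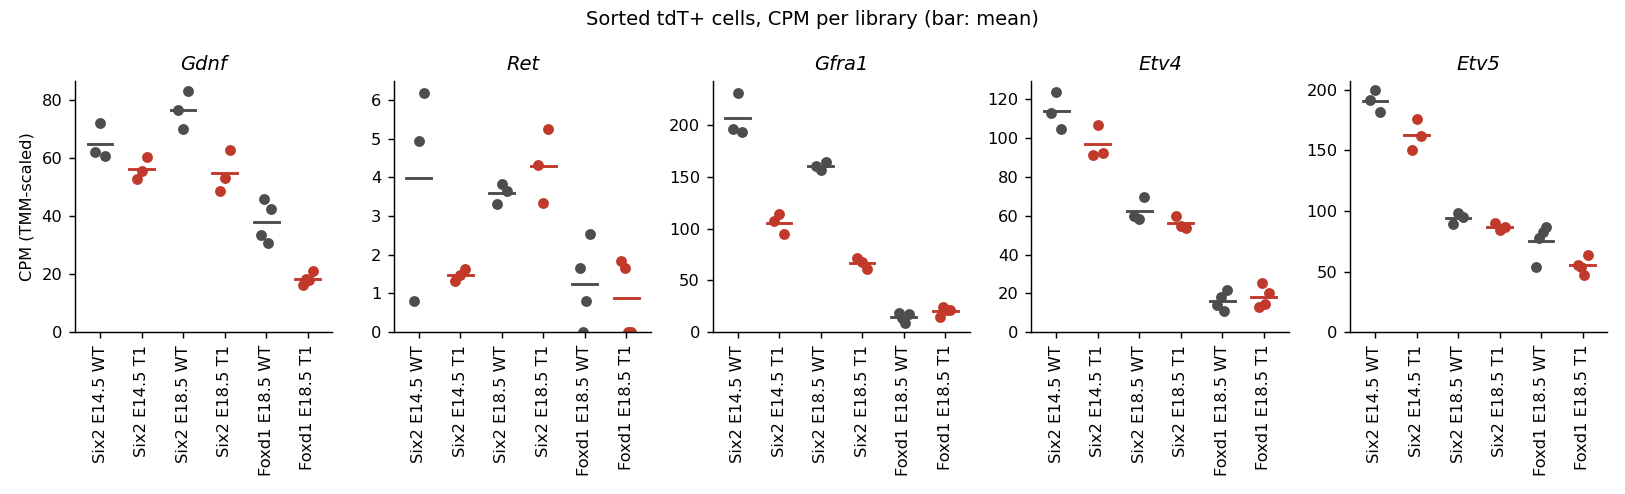
Level of the 5 genes in sorted tdT+ cells, in CPM per library on a linear axis from 0 (points) with the group mean (bar), for ENL WT and T1 Six2 cells at E14.5 and E18.5 and Foxd1 cells at E18.5. The genotypes do not overlap for *Gfra1* and *Gdnf* in Six2 cells at either stage, where the *Gdnf* groups nearly touch at E14.5. They also do not overlap for *Etv5* in Six2 cells at E14.5 and for *Gdnf* in Foxd1 cells. The first ENL WT library of E14.5 lies far below the others of its group for *Ret*.

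*Ret* (ENSMUSG00000030110, chr6:118151745-118197718, minus strand) is the signaling receptor of the tip. Six2 whole kidneys had 66.0 and 79.9 CPM in ENL WT, 57.1 and 58.0 in ENL T1, and 35.4 and 45.4 in ENL T3. The 3 genotypes did not overlap, with ENL T3 lowest. *Ret* fell 1.81-fold in ENL T3 (-0.85 ± 0.13, adjusted p = 0.00354), while the value in ENL T1 was -0.34 ± 0.13 and was not called (adjusted p = 0.131). The difference between the mutants themselves, ENL T3 minus ENL T1, was -0.51 ± 0.13 with an adjusted p of 0.512, so the mutants are not shown to differ. In that comparison 1 gene of 23931 was called (0.00418%), 1720 had an unadjusted p under 0.05 (2 of the 5 members, *Ret* and *Etv5*), DESeq2 called 54 genes higher and 17 lower, and edgeR's exact test 69 and 20. None of the 5 members was called by any of these tools.

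In Foxd1 whole kidneys *Ret* went the other way. It read 42.5, 39.7 and 43.5 CPM in ENL WT and 71.7, 66.5 and 68.5 in ENL T1, a rise of 1.64-fold (0.72 ± 0.06, adjusted p = 9.24e-07) with a wide gap between the groups. The call held without any 1 library, between 0.68 and 0.75. In these kidneys, where 10.2% of all genes were called in either direction, 2 of the 12 ureteric tree markers were called higher and 2 lower. Their sum was 1145 to 1345 CPM in ENL WT and 974.3 to 1054 in ENL T1, and none of the 12 was at 0. In the Six2 line the same sum was 946.4 to 1125 CPM in ENL WT, 883.1 to 886.1 in ENL T1 and 849.4 to 892.7 in ENL T3. The part of ureteric cells in the whole kidney *Ret* levels was not tested.

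Sorted cells held little *Ret*. Six2 cells at E18.5 had 3.30, 3.83 and 3.65 CPM in ENL WT and 4.31, 3.35 and 5.25 in ENL T1, which overlapped (0.26 ± 0.18, adjusted p = 0.368). At E14.5 the ENL WT libraries disagreed, at 0.795, 4.94 and 6.18 CPM, against 1.31, 1.49 and 1.64 in ENL T1. *Calb1*, a ureteric gene, varied there as well, from 1.32 to 25.8 CPM over the ENL WT libraries, and the part of ureteric cells in the *Ret* level was not tested. With all libraries the value was -1.41 ± 0.59 and was not called (adjusted p = 0.17), but without ENL WT replicate 1 it was -1.89 and called (adjusted p = 0.001). The stage interaction moved likewise, from 1.68 ± 0.67 (adjusted p = 0.155) to 2.17 (adjusted p = 3.38e-04) without that library, and to 1.63 (adjusted p = 0.0423) with no filter on low counts. Sorted Foxd1 libraries had 0 to 7 *Ret* counts each, 0 to 2.53 CPM, and the gene was too low to be tested there.

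*Gfra1* (ENSMUSG00000025089, chr19:58235604-58455909, minus strand), the co-receptor that binds Gdnf and presents it to Ret, was the member called in sorted Six2 cells at both stages. Of its exon bases, 7.6% are shared with the transcript *Gm16277*, so a few of its reads are uncertain. At E14.5 sorted Six2 cells had 197, 232 and 193 CPM in ENL WT and 108, 115 and 94.6 in ENL T1. At E18.5 they had 161, 156 and 165 CPM in ENL WT and 71.9, 67.5 and 60.9 in ENL T1. The groups were far apart at both stages, with a fall of 1.94-fold at E14.5 (-0.96 ± 0.09, adjusted p = 3.97e-04) and 2.40-fold at E18.5 (-1.26 ± 0.07, adjusted p = 4.76e-08), and both calls held without any 1 library of their 6.

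The fall of *Gfra1* at E18.5 minus that at E14.5 was -0.30 ± 0.12 and was not called (adjusted p = 0.166). Of all genes, 8.16% had a called stage interaction by adjusted p alone in the main edgeR fit. None of the 5 members did in that fit or with DESeq2, although *Ret* and *Gfra1* had an unadjusted p under 0.05 in the former. *Ret* was called with no filter on low counts and without ENL WT E14.5 replicate 1, as given above. Nephron progenitor markers moved with *Gfra1* in these cells: 7 of 8 were called lower at each stage, and their sum was 1972 to 2324 CPM in ENL WT against 1017 to 1221 in ENL T1 at E14.5, and 1238 to 1580 against 488.6 to 594.6 at E18.5. Over the same libraries the stromal markers summed to 644.9 to 765.2 CPM in ENL WT and 1106 to 2006 in ENL T1 at E14.5, and 518.3 to 711.9 and 987.8 to 1146 at E18.5. At E18.5 the 5 red cell markers summed to 84.6 to 166.6 CPM in ENL WT and 1237 to 1811 in ENL T1, the 6 macrophage markers to 17.59 to 22.84 and 47.7 to 61.33, and the 9 neural markers to 23.29 to 31.43 and 52.38 to 56.35. The neural sum was also higher at E14.5, 24.53 to 28.67 CPM in ENL WT and 35.7 to 42.81 in ENL T1. The 12 ureteric markers summed to 320.9 to 392.2 CPM in ENL WT and 256.1 to 278.7 in ENL T1 at E18.5, with 7 called lower and 1 higher (median -0.82), and overlapped at E14.5 (44.71 to 90.66 and 61.56 to 73.63 CPM). Whether ureteric cells or Six2 descendants transcribed these 12 genes was not tested. The 6 endothelial markers summed to 47.7 to 57.44 CPM in ENL WT and 35.84 to 49.48 in ENL T1 at E18.5. The part of these cell types in the *Gfra1* difference was not tested.

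Six2 whole kidneys had *Gfra1* at 141 and 168 CPM in ENL WT, 108 and 105 in ENL T1, and 84.5 and 99.2 in ENL T3, the 3 genotypes not overlapping. It fell 1.68-fold in ENL T3 (-0.75 ± 0.10, adjusted p = 0.0021). The ENL T1 value, 1.45-fold lower, passed the adjusted p (0.011) but not the fold threshold, which it reached without ENL WT replicate 1 (-0.65, adjusted p = 0.00244). Foxd1 whole kidneys had 118, 110 and 114 CPM in ENL WT and 180, 159 and 158 in ENL T1. All mutant libraries lay above ENL WT, with a difference of 1.46-fold (0.54 ± 0.06, adjusted p = 2.04e-05) just under the fold threshold. In sorted Foxd1 cells *Gfra1* was low, at 18.6, 14.0, 8.87 and 17.4 CPM in ENL WT and 14.8, 24.6, 21.6 and 21.6 in ENL T1. Those groups overlapped (0.47 ± 0.20, adjusted p = 0.155).

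The searched letters were found in the upstream bases of *Gfra1* alone among the members with a RefSeq window (2 windows for *Gdnf*, 1 for *Gfra1* and 2 for *Etv5*). Both matches lie on the gene's own strand, and are shown because *Gfra1* is the member that changed in Six2 cells at both stages. The ETS letters begin 156 bases before the RefSeq start and the SIX2-type letters 66 bases before it. The motif is in capitals in the 30 bases printed (GRCm38.p6, minus strand), of which the ETS stretch is chr19:58455537-58455566 and the SIX2-type stretch chr19:58455446-58455475.

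Gfra1 ETS: gagaaagtgaggCCGGAAagagaaagagga
Gfra1 SIX2-type: gtcaattgggtTCAGGTTcgtggcatttag

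A match of letters is a description and not a binding site, and of the 250 upstream bases of this window 188 lie in annotated exons.

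Of the other 6 Gdnf-family genes, *Gfra2*, the co-receptor that prefers neurturin, moved against *Gfra1* in the Six2 lineage. In sorted Six2 cells at E14.5 it was 1.86, 2.40 and 2.73 CPM in ENL WT and 29.7, 26.4 and 28.9 in ENL T1 (3.62 ± 0.15, adjusted p = 1.09e-05). At E18.5 it was 1.83, 2.42 and 2.48 CPM in ENL WT and 37.1, 46.5 and 48.7 in ENL T1 (4.30 ± 0.15, adjusted p = 4.91e-10). Low and high libraries followed genotype in every case.

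*Gfra2* also rose in Six2 whole kidneys, from 10.2 and 11.1 CPM in ENL WT to 27.9 and 25.1 in ENL T1 (1.32 ± 0.09, adjusted p = 1.20e-04) and to 32.6 and 33.3 in ENL T3 (1.63 ± 0.09, adjusted p = 4.28e-05). It was not called in either Foxd1 comparison. *Artn*, the ligand artemin, rose in Six2 whole kidneys of ENL T1 (0.93 ± 0.18, adjusted p = 0.0117) and ENL T3 (1.04 ± 0.18, adjusted p = 0.00625), the former not without ENL T1 replicate 2 (0.75, adjusted p = 0.0956). *Gfra3*, its co-receptor, rose in sorted Six2 cells at E14.5 (1.23 ± 0.15, adjusted p = 0.00137). No gene of these 6 was called lower in any comparison of genotypes.

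**Figure D3:**
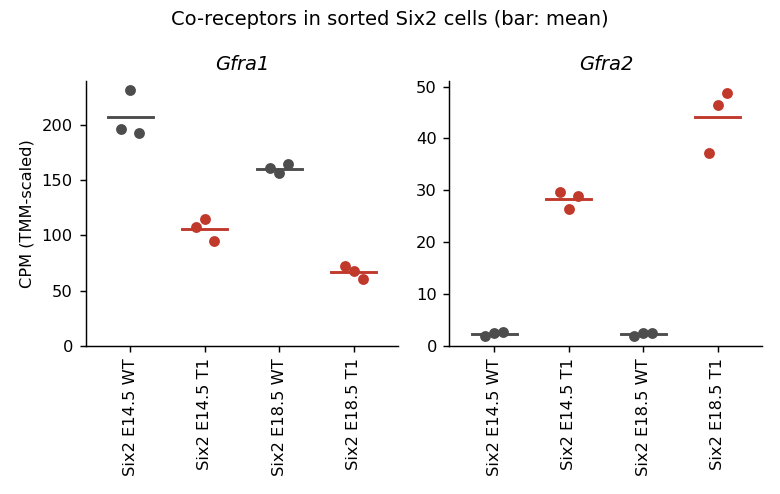
Level of the co-receptors *Gfra1* (left) and *Gfra2* (right) in sorted Six2 cells, in CPM per library on linear axes of different range (points) with the group mean (bar). At both stages the ENL T1 points lie below ENL WT for *Gfra1* and above ENL WT for *Gfra2*, without overlap.

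*Etv4* (ENSMUSG00000017724, chr11:101769742-101785371, minus strand) and *Etv5* (ENSMUSG00000013089, chr16:22381309-22439719, minus strand) are the ETS factors that act after Ret in the tip. In Six2 whole kidneys *Etv4* was 37.6 and 36.2 CPM in ENL WT, 26.1 and 25.2 in ENL T1, and 21.9 and 27.5 in ENL T3. The mutants lay below ENL WT and overlapped each other, with differences of 1.44-fold (-0.53 ± 0.11, adjusted p = 0.016) and 1.49-fold (-0.58 ± 0.11, adjusted p = 0.00934) that stopped short of the fold threshold. The ENL T3 value passed it without ENL T3 replicate 2 (-0.75, adjusted p = 0.00504) or ENL WT replicate 2 (-0.59, adjusted p = 0.0172).

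*Etv5* in the same kidneys was 62.4 and 67.9 CPM in ENL WT, 58.0 and 57.4 in ENL T1, and 47.6 and 52.9 in ENL T3. The genotypes did not overlap, yet the differences were the smallest of the 5 members, at -0.18 ± 0.07 (adjusted p = 0.167) in ENL T1 and -0.37 ± 0.07 (adjusted p = 0.0107) in ENL T3.

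Foxd1 whole kidneys had *Etv4* at 53.1, 47.8 and 51.2 CPM in ENL WT and 71.0, 62.8 and 61.4 in ENL T1. *Etv5* was 77.0, 68.7 and 75.9 CPM in ENL WT and 106, 97.3 and 100 in ENL T1. For both genes every mutant library was above every ENL WT library, by 1.28-fold for *Etv4* (0.36 ± 0.07, adjusted p = 0.00105) and 1.37-fold for *Etv5* (0.46 ± 0.06, adjusted p = 6.85e-05), under the fold threshold.

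Nephron progenitors and their descendants transcribed both ETS genes themselves. In sorted Six2 cells at E14.5 *Etv4* was 113, 124 and 105 CPM in ENL WT and 91.3, 107 and 92.2 in ENL T1 (adjusted p = 0.112), and *Etv5* was 192, 200 and 182 against 151, 176 and 162 (-0.22 ± 0.06, adjusted p = 0.05). *Etv4* overlapped and *Etv5* did not. At E18.5 *Etv4* was 60.1, 58.5 and 69.6 CPM against 59.8, 54.7 and 53.8, and *Etv5* 89.5, 98.5 and 94.97 against 90.2, 84.3 and 86.8. Both overlapped and neither was called (adjusted p = 0.218 and 0.278).

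In sorted Foxd1 cells *Etv4* ran from 10.9 to 21.7 CPM in ENL WT and 12.9 to 25.3 in ENL T1, which overlapped (0.17 ± 0.22, adjusted p = 0.704). *Etv5* ran from 53.9 to 86.4 CPM in ENL WT and 47.5 to 63.6 in ENL T1. It overlapped through ENL WT replicate 1, and the difference of 1.35-fold passed the adjusted p alone (-0.44 ± 0.13, adjusted p = 0.0366).

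**Figure D4:**
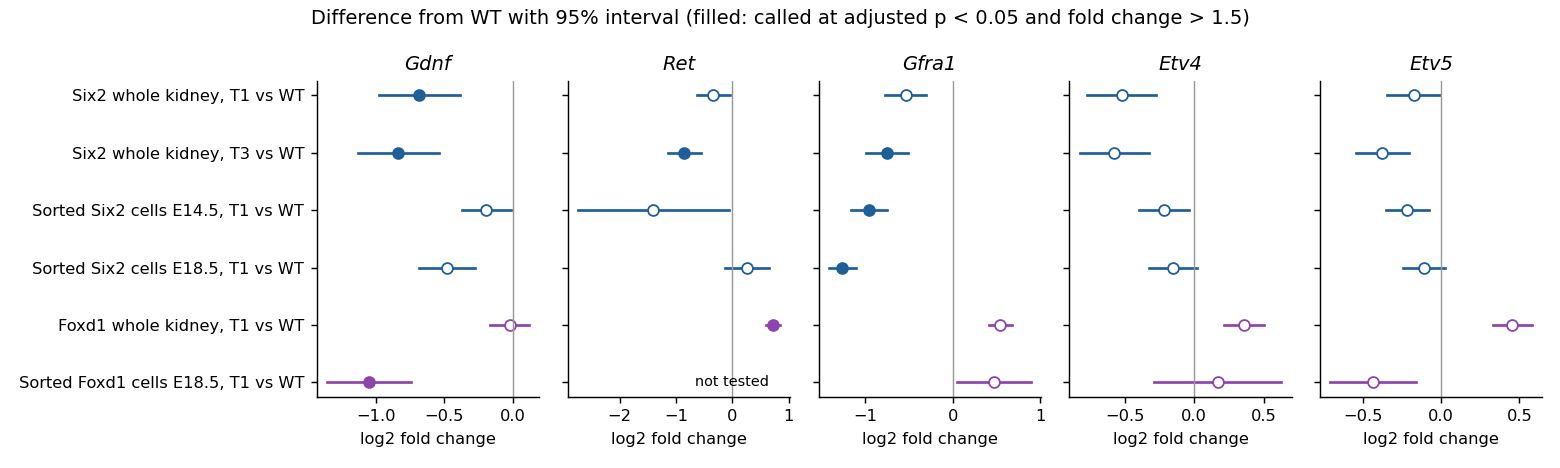
Difference of each mutant from ENL WT for the 5 genes, as log2 fold change (points) with the 95% interval of the edgeR fit (lines), in the Six2 line (blue) and the Foxd1 line (purple). Filled points passed both thresholds, each panel has its own range on the x axis, and *Ret* was not tested in sorted Foxd1 cells.

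The largest difference of an ETS gene was developmental. From E14.5 to E18.5 in ENL WT cells, *Etv5* fell from a mean of 191 ± 8.91 to 94.3 ± 4.53 CPM (n = 3 each; 2.02-fold, -1.02 ± 0.06, adjusted p = 2.37e-09), which passed the developmental thresholds by little. *Etv4* went from 114 ± 9.50 to 62.7 ± 6.01 CPM (1.82-fold, adjusted p = 4.08e-07), short of the fold change of 2. *Gfra1* (-0.37 ± 0.09, adjusted p = 0.00144) and *Ret* (-0.15 ± 0.47, adjusted p = 0.792) did not pass. Markers of several cell types moved over the same libraries. Of the 8 nephron progenitor markers 5 were called lower and 1 higher (median -1.61, sum 1972 to 2324 CPM at E14.5 and 1238 to 1580 at E18.5). Of the 12 ureteric markers 8 were called higher and 1 lower (median 3.40, sum 44.71 to 90.66 and 320.9 to 392.2 CPM), while *Ret*, the receptor of the tip, was not called. Whether ureteric cells or Six2 descendants transcribed these 12 genes was not tested. Of the 6 endothelial markers 5 were called higher and 0 lower (median 2.69, sum 8.216 to 8.865 and 47.7 to 57.44 CPM). The part of these markers in the fall of *Etv5* was not tested.

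The *Etv5* call ended under several settings. The value was -0.89 with DESeq2 or its RLE size factors, -0.999 with no filter, -0.89 among genes over 1 CPM and -0.94 in a fit of the ENL WT libraries alone, all with a fold change under 2. It also ended without ENL WT E14.5 replicate 2 (-0.99), without ENL WT E18.5 replicates 1 or 3 (-0.95 and -0.98) and without any 1 ENL T1 library of E18.5 (-0.98). Scaling moved all genes in this comparison: their median was 0.015 here, 0.148 with RLE size factors and -0.122 with library size alone. Relative to these medians *Etv5* was lower by nearly the same amount, at -1.03, -1.03 and -1.04, and *Etv4* at -0.88 in each.

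Per kilobase of exon, *Gfra1* had the highest mean of the members in ENL WT whole kidneys of both lines and in sorted Six2 cells at E18.5, and *Etv5* in sorted Foxd1 cells and in sorted Six2 cells at E14.5. *Ret* had the lowest mean in all 5. In ENL WT Six2 cells at E18.5 *Gfra1* stood at 29.4 ± 0.78 CPM per kb (mean ± SD, n = 3), followed by *Etv5* (23.0 ± 1.11), *Gdnf* (20.8 ± 1.78), *Etv4* (20.2 ± 1.94) and, far lower, *Ret* (0.53 ± 0.04). *Etv5*, *Gdnf* and *Etv4* were next to each other with spreads that met. In ENL WT Foxd1 cells *Etv5* led (18.3 ± 3.57 CPM per kb, n = 4), above *Gdnf* (10.4 ± 1.95), *Etv4* (5.23 ± 1.51), *Gfra1* (2.69 ± 0.80) and *Ret* (0.19 ± 0.16). In ENL WT whole kidneys of the Six2 line *Gfra1* was at 28.2 ± 3.38 CPM per kb (n = 2), and *Ret* reached 10.8 ± 1.45, beside *Gdnf* at 11.2 ± 0.42 and *Etv4* at 11.9 ± 0.32, which did not differ beyond their spread.

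Whether the ENL T1 effect differed between the lines was tested as an interaction, the effect in the Foxd1 line minus that in the Six2 line. In whole kidneys all 5 genes had a higher value in the Foxd1 line by adjusted p (5 of 5, against 8.37% of all genes in either direction): *Gfra1* by 1.06 ± 0.12 (adjusted p = 1.24e-04), *Ret* by 1.05 ± 0.12 (1.21e-04), *Etv4* by 0.87 ± 0.10 (1.42e-04), *Gdnf* by 0.65 ± 0.11 (0.00262) and *Etv5* by 0.62 ± 0.10 (0.00183). All 5 held without any 1 of the 10 libraries. The lines also differed in the Cre driver, the *Foxd1* allele, the sex of the embryos and the count table, which cannot be told apart from the lineage.

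In sorted E18.5 cells 15.9% of all genes had a called interaction, and 2 of the 5 members did. The *Gfra1* effect was higher in Foxd1 cells (1.71 ± 0.21, adjusted p = 4.01e-06), which held without any 1 of the 14 libraries. The *Gdnf* effect was lower in Foxd1 cells (-0.59 ± 0.19, adjusted p = 0.0325), a call that ended without any 1 of 7 libraries, where adjusted p ran from 0.0531 to 0.0838 and the difference from -0.61 to -0.48. These were replicate 3 of ENL T1 and replicate 2 of ENL WT in Six2 cells, and replicates 2 and 4 of ENL WT and 1, 2 and 3 of ENL T1 in Foxd1 cells. *Etv5* was called without Foxd1 ENL WT replicate 1 (-0.51, adjusted p = 0.00596). The sorted Foxd1 libraries had far fewer counts than the sorted Six2 libraries.

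Beyond the members, 18 genes known to act on *Gdnf* in the mesenchyme, whatever cells make them, were examined. Of these, *Eya1*, *Osr1* and *Itga8* are also among the 8 nephron progenitor markers, so their calls count in both lists. In Six2 whole kidneys 4 of 18 rose and 3 fell in ENL T1 (median log2 fold change 0.25, all genes -0.01), and 4 rose and 4 fell in ENL T3 (median 0.30, all genes -0.002). Of all genes, 7.77% and 9.62% were called in these comparisons in either direction. The risers were the posterior Hox genes *Hoxc11* (1.47 ± 0.09, adjusted p = 8.85e-05 in ENL T1), *Hoxa11* (1.07 ± 0.10, adjusted p = 5.49e-04) and *Hoxd11* (0.89 ± 0.14, adjusted p = 0.00513), and the BMP antagonist *Grem1* (1.86 ± 0.11, adjusted p = 8.89e-05). Posterior Hox factors act with Eya1 and Pax2 on *Gdnf*. In both mutants these Hox genes were called higher, *Gdnf* and *Eya1* were called lower, and *Pax2* was not called. A link between these differences was not tested. Of the exon bases of *Hoxa11*, 35% are shared with its antisense gene *Hoxa11os*, and of those of *Hoxd11* 10.8% with *Gm28309*, and the counting did not use strand.

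The fallers were *Osr1*, a factor of early kidney mesenchyme (-0.78 ± 0.12, adjusted p = 0.00395), *Eya1*, a transcriptional co-activator (-0.64 ± 0.17, adjusted p = 0.0446), and *Npnt*, the integrin ligand nephronectin (-0.63 ± 0.09, adjusted p = 0.00256). *Eya1* and *Npnt* lost their calls without ENL T1 replicate 1 (adjusted p = 0.137 and 0.0639), *Eya1* and *Osr1* without ENL T1 replicate 2 (0.287 and 0.0565), and *Eya1* and *Npnt* without ENL WT replicate 2 (-0.42 and -0.53). In ENL T3 *Eya1* fell by 1.06 ± 0.17 (adjusted p = 0.00497), a call kept without any 1 library, as was that of *Npnt* (-0.82 ± 0.09, adjusted p = 6.72e-04). In ENL T3 the calls of *Osr1*, *Foxc1* and *Hoxd11* ended without 1 library: *Osr1* and *Foxc1* without ENL T3 replicate 1 (-0.58 and -0.57) or ENL WT replicate 2 (-0.58 and -0.51), and *Hoxd11* without ENL T3 replicate 2 (0.55) or ENL WT replicate 2 (0.48).

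Within sorted Six2 cells 4 of the 18 rose and 5 fell at E14.5 (median 0.01, all genes 0.003), and 7 rose and 5 fell at E18.5 (median 0.27, all genes 0.015). Of all genes, 6.4% and 11.7% were called at these stages in either direction. At E18.5 *Hoxa11* rose by 3.17 ± 0.08 (adjusted p = 5.84e-11), *Hoxc11* by 2.58 ± 0.09 (adjusted p = 7.88e-10) and *Hoxd11* by 1.84 ± 0.09 (adjusted p = 1.24e-08). *Osr1* fell by 1.76 ± 0.15 (adjusted p = 1.56e-06), *Robo2*, the Slit receptor that limits the *Gdnf* domain, by 1.46 ± 0.07 (adjusted p = 1.21e-08), and *Npnt* by 1.15 ± 0.09 (adjusted p = 1.35e-06).

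In Foxd1 tissue most changes were rises. Of all genes, 5.81% were called in sorted Foxd1 cells and 10.2% in Foxd1 whole kidneys, in either direction. Sorted Foxd1 cells had 5 of 17 tested regulators higher and 0 lower (median 0.06, all genes -0.004), among them *Hoxc11* (2.06 ± 0.20, adjusted p = 1.04e-06), *Six4* (1.53 ± 0.20, adjusted p = 2.99e-05), *Hoxa11* (1.11 ± 0.09, adjusted p = 1.47e-07) and *Osr1* (0.84 ± 0.17, adjusted p = 0.00256). *Six4* encodes a homeobox factor of early kidney mesenchyme, and it rose while *Gdnf* itself fell in these cells. Foxd1 whole kidneys had 6 of 18 higher and 1 lower (median 0.22, all genes -0.003), with *Hoxa11* at 1.08 ± 0.07 (adjusted p = 1.18e-07) and *Osr1* at 0.78 ± 0.10 (adjusted p = 4.56e-05), and *Grem1* fell by 1.13 ± 0.25 (adjusted p = 0.00333).

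The 13 other genes that Ret induces in the tip, or that damp its signal, were counted in the same way. Of all genes, 7.77% in ENL T1 and 9.62% in ENL T3 whole kidneys of the Six2 line were called in either direction. Whole kidneys of the Six2 line had 0 higher and 2 lower in both ENL T1 (median -0.14, all genes -0.01) and ENL T3 (median -0.25, all genes -0.002), and 1 lower in ENL T1 without ENL T1 replicate 2. *Cxcr4*, a chemokine receptor, fell by 0.70 ± 0.08 (adjusted p = 0.00109) and 0.78 ± 0.08 (adjusted p = 5.57e-04). The tip ligand *Wnt11*, the feedback inhibitors *Spry1*, *Spry2* and *Spry4* and the phosphatase *Dusp6* were not called in these kidneys. By adjusted p alone, *Spry1* was lower in ENL T1 (-0.24, adjusted p = 0.0412) and ENL T3 (-0.25, adjusted p = 0.0315). The same held for *Spry4* (-0.34, adjusted p = 0.0279, and -0.36, adjusted p = 0.02) and *Met* (-0.34, adjusted p = 0.0148, and -0.41, adjusted p = 0.00574). *Wnt11*, *Spry2* and *Dusp6* did not pass it in either mutant, and none of the 13 was higher by that rule.

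In Foxd1 whole kidneys, against 10.2% of all genes called in either direction, 1 of the 13 rose and 0 fell (median 0.11, all genes -0.003). It was *Sox9*, a tip factor that also marks other epithelia (0.61 ± 0.07, adjusted p = 1.53e-05), whose fold change was just under 1.5 without ENL T1 replicate 2 (0.56) or ENL WT replicate 2 (0.57). *Sox9* also was the 1 riser of 9 tested in sorted Foxd1 cells (1.16 ± 0.11, adjusted p = 6.91e-07), with 0 fallers. Of all genes, 5.81% were called in those cells in either direction. In sorted Six2 cells 1 of 13 rose and 1 fell at E14.5 (median -0.12), and 1 rose and 0 fell at E18.5 (median -0.006). The shares of all genes called there in either direction were 6.4% and 11.7%. *Wnt11* was the riser at both stages (0.77 ± 0.19, adjusted p = 0.0336, and 1.06 ± 0.13, adjusted p = 4.26e-05), and its E14.5 call ended without any 1 of 5 of the 6 libraries, all but ENL WT replicate 3 (log2 fold change 0.56 to 0.84). *Sox8*, a partner of *Sox9* in the tip, was the faller (-0.76 ± 0.12, adjusted p = 0.00387).

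Among 14 signals and factors that modulate branching, 0 rose and 2 fell in ENL T1 whole kidneys of the Six2 line (median -0.21, all genes -0.01), and 0 rose and 5 fell in ENL T3 (median -0.20, all genes -0.002), where 7.77% and 9.62% of all genes were called in either direction. *Aldh1a2*, an enzyme of retinoic acid synthesis, fell in both (-0.59 ± 0.12, adjusted p = 0.0154, and -0.64 ± 0.12, adjusted p = 0.00954), and its ENL T1 call ended without any 1 of 5 of the 6 libraries, all but ENL WT replicate 1 (log2 fold change -0.59 to -0.42). In ENL T3 the count was 2 without ENL T3 replicate 1 or ENL WT replicate 2, which ended the calls of *Aldh1a2*, *Wnt9b* and *Lhx1*, and 3 without ENL T3 replicate 2. *Bmp7*, a survival factor of nephron progenitors, fell in both (-0.64 ± 0.05, adjusted p = 2.70e-04, a call lost in at least 1 other setting, and -0.71 ± 0.05, adjusted p = 1.51e-04). *Fgf10*, a mesenchymal growth factor that can drive branching beside Gdnf, fell in ENL T3 (-0.77 ± 0.10, adjusted p = 0.00181). In sorted Six2 cells 2 rose and 2 fell at E14.5, and 2 rose and 5 fell at E18.5 (1 rose without ENL T1 replicate 1, and 3 fell without ENL T1 replicate 2 or 3), *Bmp7* (-1.17 ± 0.07, adjusted p = 4.06e-08) and *Fgf10* (-0.96 ± 0.10, adjusted p = 1.44e-05) among the latter. Of all genes, 6.4% were called there at E14.5 and 11.7% at E18.5, in either direction.

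In Foxd1 whole kidneys *Fgf10* rose instead (0.74 ± 0.11, adjusted p = 2.10e-04) and *Agtr2*, the angiotensin receptor type 2, fell (-0.88 ± 0.06, adjusted p = 4.44e-07), the 2 genes called of 14. Of all genes, 10.2% were called in Foxd1 whole kidneys and 5.81% in sorted Foxd1 cells, in either direction. Sorted Foxd1 cells had 0 higher and 2 lower of 13 tested, *Agtr2* (-1.15 ± 0.14, adjusted p = 2.03e-05) and *Ecm1*, a stromal matrix protein that restricts *Ret* to the tip (-0.87 ± 0.11, adjusted p = 1.67e-05). No link between the *Ret* rise in Foxd1 whole kidneys and the *Ecm1* fall in sorted stroma was tested.

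**Figure D5:**
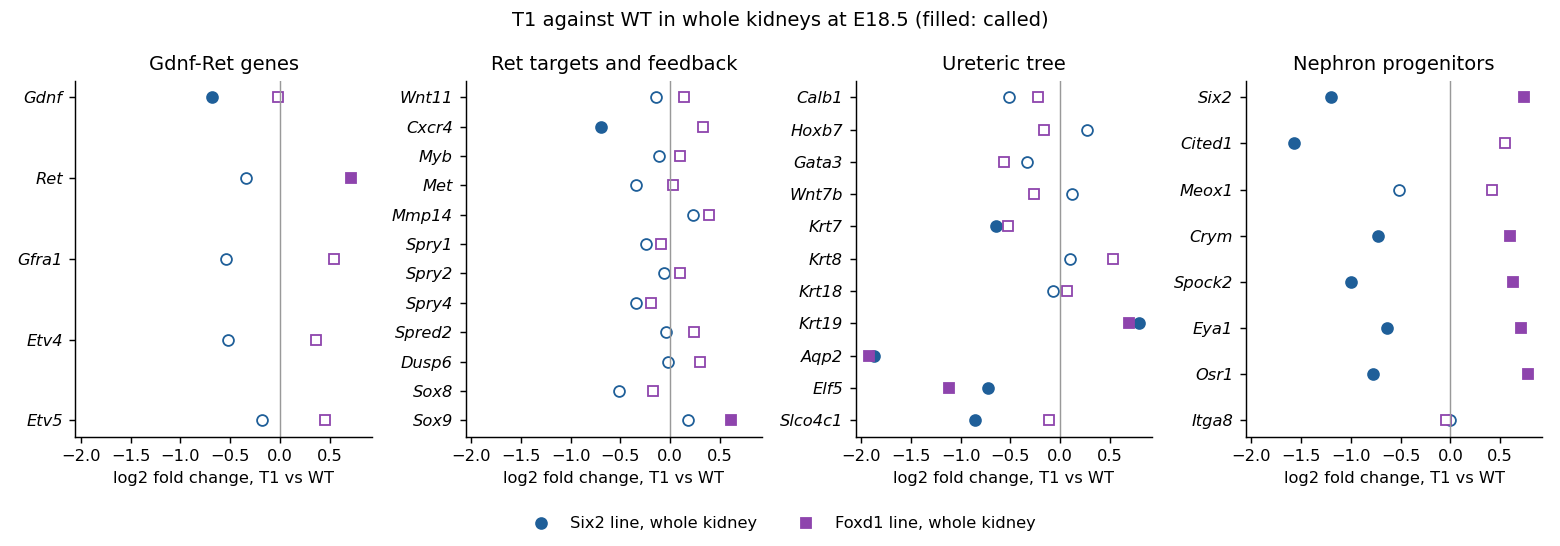
Log2 fold change of ENL T1 against ENL WT in E18.5 whole kidneys of the Six2 line (circles) and the Foxd1 line (squares), for the 5 members and for Ret targets and feedback genes, ureteric genes (some genes of these lists are not drawn) and 8 nephron progenitor genes. Filled symbols were called, and *Cited1* at -1.57 in the Six2 line is the lowest progenitor gene.

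The 12 ureteric genes moved both ways in both lines. In them 2 rose and 4 fell in each Six2 mutant (medians -0.20 in ENL T1 and -0.18 in ENL T3), and 2 rose and 2 fell in Foxd1 ENL T1 (median -0.19). Of all genes, 7.77%, 9.62% and 10.2% were called in these 3 comparisons in either direction. The water channel *Aqp2* of mature collecting ducts fell in each (-1.87 ± 0.17, adjusted p = 4.23e-04, and -1.56 ± 0.17, adjusted p = 7.31e-04, in the Six2 line, and -1.92 ± 0.12, adjusted p = 9.99e-08, in the Foxd1 line). *Elf5*, a factor of the same cells, fell with it, and *Krt19*, a keratin of epithelia, rose.

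Nephron progenitor genes separated the lines. Of all genes, 7.77% in ENL T1 and 9.62% in ENL T3 of the Six2 line and 10.2% in the Foxd1 line were called in either direction. Among Six2 whole kidneys 0 of 8 rose and 6 fell in either mutant (medians -0.75 and -0.89), led by *Cited1* (-1.57 ± 0.13, adjusted p = 3.10e-04, and -1.78 ± 0.13, adjusted p = 1.63e-04). In Foxd1 whole kidneys 5 of 8 rose and 0 fell (median 0.62), among them *Six2* (0.75 ± 0.08, adjusted p = 1.65e-05). Without ENL T1 replicate 1 the count was 2, since *Eya1*, *Crym* and *Spock2* were then under the fold threshold. The same sorted Six2 cells held *Gfra1*, *Etv4*, *Etv5* and these markers. The part of the markers in the whole kidney differences was not tested.

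Over all 32 libraries, with the mean of each table removed, the members tracked different genes. Pearson's r, given as a description over libraries that share groups and depth, was computed against 11722 protein-coding genes tested in every genotype comparison. Differences of genotype, and of stage in sorted Six2 cells, were left in, and their part in r was not tested. *Gfra1* was most like *Cited1* (0.868), *Traf1* (0.866) and *Btbd11* (0.844), *Etv4* most like *Eya1* (0.873), *Cd3eap* (0.868) and *Prkaca* (0.863), *Etv5* most like *Dtl* (0.941), *Cand1* (0.935) and *Prpf4* (0.928), and *Gdnf* most like *Acsl3* (0.775), *Sept11* (0.775) and *Cnot6* (0.768). *Ret* was left out since it was not tested in sorted Foxd1 cells. Among the members, *Etv4* and *Etv5* were most alike (0.75), followed by *Gfra1* and *Etv4* (0.679), whereas *Gdnf* and *Gfra1* gave 0.20.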

How the data were processed

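RNA of whole kidneys and of sorted tdT+ cells was sequenced from 32 libraries, grouped by the genotype, sort and stage in their labels. The authors deposited raw read counts per gene, made by HISAT2 alignment to mm10 and HTSeq counting without strand. The annotation release is not given in the sources used here. Whole kidney RNA was prepared with a stranded mRNA kit and sorted cells with SMART-Seq v4, and libraries held 2557443 to 157266455 counts. Of 55806 identifiers, 55536 were named through GENCODE vM21 (GRCm38) and 270 had no name.

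Counts were filtered (filterByExpr, minimum count 10 and minimum total 15), TMM-scaled and tested with edgeR 4.0.16 in R 4.3.3 (quasi-likelihood test, Benjamini-Hochberg over all genes tested). Genotype calls needed an adjusted p below 0.05 with a fold change above 1.5, developmental calls 0.01 and 2, interactions 0.05 alone. The T1 and T3 whole kidneys shared one fit of 6 libraries, and the 12 sorted Six2 libraries one fit for development and stage. The tests were tested on simulated data. Levels are CPM, per kb of merged exon length where genes are compared. Promoter windows came from RefSeq on GRCm38.p6 and were searched with Python 3.11.15. Figures were drawn with matplotlib 3.10.9.

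The members and gene lists were chosen with earlier results of these data known. Named genes are the 5 members, list genes called in the comparison described (at most 6 a list, by size) and the 3 most correlated genes per member. Replicate numbers are shared between groups, and the labels do not say whether they pair samples, so samples were treated as unpaired. With group means removed, same-numbered libraries correlated between -0.079 and 0.139 over 17 pairs. Differently numbered libraries were not compared, so this cannot settle the pairing. DESeq2 1.42.0, other scalings, filters and thresholds, edgeR's exact test, a replicate block and leaving out each library were the alternatives. Some results of the gene lists are not reported here. Groups of 2 to 4 libraries limit the precision.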

Additional observations from a re-analysis of the deposited data

Results flagged for a closer look

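For 7 values, the ENL T1 effect differed between the Foxd1 and Six2 lines by the interaction test (edgeR's quasi-likelihood test, adjusted p under 0.05). They are log2 differences of the effects, Foxd1 line minus Six2 line. In whole kidneys these were 0.65 for *Gdnf* (-0.02 in the Foxd1 line and -0.69 in the Six2 line, each in its own fit), 1.05 for *Ret* (0.72 and -0.34), 1.06 for *Gfra1* (0.54 and -0.54), 0.87 for *Etv4* (0.36 and -0.53) and 0.62 for *Etv5* (0.46 and -0.18). In sorted E18.5 cells they were 1.71 for *Gfra1* (0.47 and -1.26) and -0.59 for *Gdnf* (-1.05 and -0.48). Line, Cre driver, table and embryo sex cannot be told apart in these differences. In 10 sets of 4 libraries, no library lay far enough from the other three to be singled out by Dixon's test.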

How the results depend on the processing

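The number of the 5 genes called was 1 for ENL T1 and 3 for ENL T3 in Six2 whole kidneys, 1 in each of the sorted Six2, sorted Foxd1, Foxd1 whole kidney and developmental comparisons, 0 for ENL T3 against ENL T1 and for the stage interaction, 2 for the sorted and 5 for the whole kidney interaction between lines. Thresholds moved it most. With no fold threshold the counts were 3 (ENL T1), 5 (ENL T3), 2 (sorted Six2, either stage), 2 (sorted Foxd1), 4 (Foxd1 whole kidney) and 3 (development), since genes that had passed the adjusted p alone then counted. With a fold change over 2 they were 0 in the whole kidney comparisons and in sorted Six2 cells at E14.5. The developmental count was 0 with DESeq2, RLE size factors, no filter, genes over 1 CPM or the ENL WT libraries alone, and 2 with library size scaling or with the genotype thresholds of 0.05 and 1.5. The stage interaction had 1 with no filter, *Ret*.

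Leaving out 1 library gave counts of 0 to 2 (ENL T1), 3 to 4 (ENL T3), 0 to 0 (ENL T3 against ENL T1), 1 to 2 (sorted Six2 at E14.5 and at E18.5), 1 to 1 (sorted Foxd1 and Foxd1 whole kidney), 0 to 1 (development and stage interaction), 1 to 3 (sorted interaction) and 5 to 5 (whole kidney interaction). Where 1 library remained in a group, its spread was taken from the other groups. Signs turned only in values that were not called: *Gdnf* (-0.365 to 0.031) and *Etv4* (-0.23 to 0.101) in ENL T3 against ENL T1, *Etv4* in sorted Foxd1 cells (-0.028 to 0.326), *Gdnf* in Foxd1 whole kidneys (-0.073 to 0.028), *Ret* in development (-0.633 to 0.317) and *Etv4* in the stage interaction (-0.03 to 0.149).

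With a replicate block the counts of members called were 1, 3 and 0 in Six2 whole kidneys, 1 in each sorted and Foxd1 comparison and in development, and 0 for the stage interaction, so the block changed none of them, and it turned only *Ret* in development (0.03, adjusted p = 0.957). The interactions between lines were not fitted with a block.

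Scaling by library size moved the split of higher and lower calls over all genes from 995 and 1064 to 1268 and 882 in the stage interaction, and from 1226 and 1135 to 935 and 1555 in the sorted interaction. Over all genes, ENL T3 against ENL T1 gave 1 call, 207 higher and 93 lower with no filter, and 6 and 8 in a fit of those 2 groups alone. The whole kidney interaction gave 1100 higher and 810 lower, 1812 and 1071 with DESeq2, and 1655 and 1475 with no filter. Of 351 calls of list genes over 10 comparisons, 0 changed sign, 40 were lost in at least 1 other setting and 76 without at least 1 library. The cause of these differences was not tested. *Ret* had 0 to 7 counts per library in sorted Foxd1 cells and could not be tested at this depth.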
